A study of Mus musculus with 2 samples.

Results

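The mouse duodenum, the part of the gut that follows the stomach, was read here through 4911 junctions of the deposited splice junction list. They were taken here as unannotated yet well supported. A splice junction is the pair of bases between which an intron has been cut out of an RNA. Each entry of the list carries a flag A, a flag C and 2 read counts, R1 and R2. The labels do not define the flags, and A at 1 was read here as annotated and A at 0 as unannotated. Members were the entries with A at 0, C at 1 and at least 5 reads in both R1 and R2, and they made up 4911 of 347142 junctions. The RNA was polyadenylated RNA from adult C57BL/6J mice, 8 weeks old, with tissue of male and female littermates pooled, in 2 libraries of a single untreated group. Both libraries carry the same donor entry, and which of R1 and R2 belongs to which library was not assigned. A test between R1 and R2 is thus a test of these libraries only, and part of their spread may be technical. The members were chosen by flags A and C and by the read counts R1 and R2.

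An intron starts at a donor end, nearly always with the bases GT, and stops at an acceptor end, nearly always with AG. The spliceosome can choose between nearby ends, skip an exon, or use an end that no catalogue lists, so a gene can give several RNAs. The duodenum is also rich in plasma cells, which secrete antibodies of the IgA class into the gut. In those cells the antibody genes have been cut and rejoined in the DNA, and splicing then joins a J segment, the last piece of the variable region, to a constant region, the part that sets the class.

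The antibody joins, which held 18.1% of member reads in 19 junctions, are shown first. Some are listed with the reference letters of the J segment and the constant region that their intron length matched. In each line below the lower case letters are the last 15 bases of the J segment and the capitals are the first 15 bases of the constant region, as spliced.
Ighj2 to Igha: tcacagtctcctcagAGTCTGCGAGAAATC
Ighj3 to Igha: tcactgtctctgcagAGTCTGCGAGAAATC
Ighj4 to Igha: tcaccgtctcctcagAGTCTGCGAGAAATC
Igkj5 to Igkc: agctggagctgaaacGGGCTGATGCTGCAC
Igkj1 to Igkc: agctggaaatcaaacGGGCTGATGCTGCAC
Igkj2 to Igkc: agctggaaataaaacGGGCTGATGCTGCAC
Igkj4 to Igkc: agttggaaataaaacGGGCTGATGCTGCAC
The letters come from GENCODE M21 transcripts of the reference mouse (mm10 build), and each junction was tied to its segments by its intron length alone, since the junction positions are in mm9. The fourth heavy chain segment, Ighj1, ends in the same 15 bases as Ighj4.

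Members held 1468721 of the 32399438 junction reads, or 4.53%, with 838331 reads in R1 and 630390 in R2. The median member had 37 reads (quartiles 20 and 84), 17 in R1 and 17 in R2, and 1077 members had at least 100. The 12 members with the most reads held 48.3% of all member reads. R1 and R2 lay within 2-fold of each other for 63.1% of members, against 64.1% of the annotated junctions with the same read minimum, and they differed by at least 10-fold for 63 members in favour of R1 and 37 in favour of R2. The deposited score, which is lower for better supported entries, had a median of 0.023 and reached 0.417. Just inside the rule, 711 members had 5 reads as the smaller of R1 and R2, with a median of 14 reads and a score of 0.115, and 65 of them had 5 in both. Just outside it, 905 junctions had a smaller count of 4, with a median of 12 reads and a score of 0.158. These values chose the members and are given as a description.

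**Figure D1:**
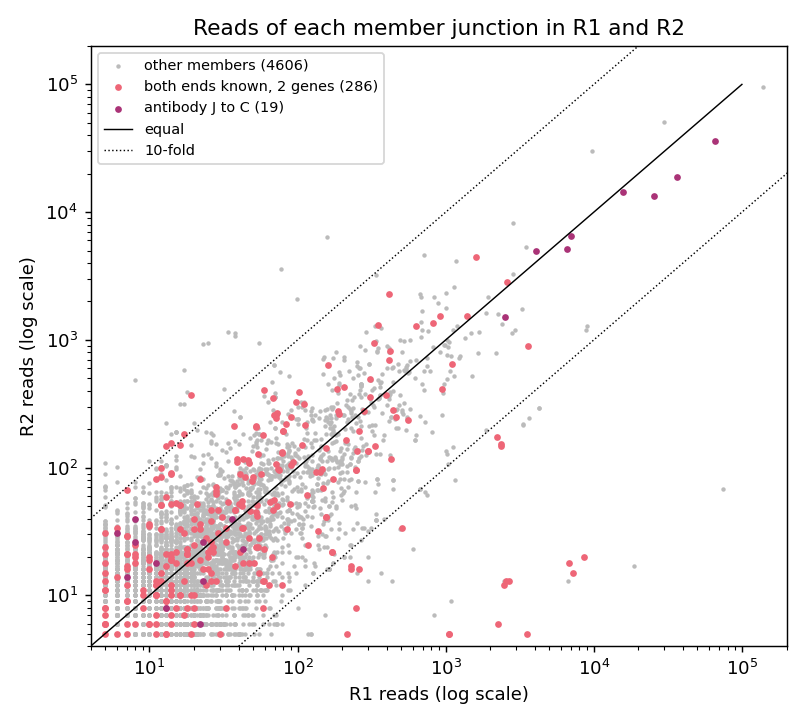
Each point is a member junction, with its R1 reads on the x axis and its R2 reads on the y axis, both on log scales. Of the 19 antibody joins, the 8 into Igha and Igkc lie at the upper right and the others among members with few reads, while a set of joins between 2 genes lies beyond the 10-fold line on the R1 side.

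Flag A was at 1 for 120877 junctions, and the lengths of an intron, the next exon and the next intron named 90.6% of these as a single GENCODE M21 gene. Their ends are called known here. Any other end, and any other combination of ends, is called new, also where GENCODE M21 lists it. The same length match placed 1016 members (20.7%) at an intron that GENCODE M21 lists, although their flag A was at 0, while the same match with lengths shifted by 1 to 9 bases gave 2 to 13 members. Flag C could be checked where a new end fell inside a known exon, because that exon's letters can be read. The intron then ended in AG at 634 of 634 new acceptors and began with GT at 249 of 249 new donors, so flag C at 1 went with the standard splice letters at every end that could be read.

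Of the members, 1467 (29.9%) shared only their donor end with a known junction, 1208 (24.6%) only their acceptor end, 895 (18.2%) joined 2 known ends in a new combination, and 1341 (27.3%) used neither. At least 1 known end was thus present in 72.7%, against 61.5% of the less supported unannotated junctions with flag C at 1 and 2.84% of those with flag C at 0 and the same read minimum. The median intron was 1760 bases, between 907 for annotated junctions and 7840 for the set with flag C at 0. Introns longer than 50000 bases made up 12.5% of members and 0.864% of annotated junctions. A transcribed stretch from the deposited contig list touched both ends of 87.6% of members, against 99.5% of annotated junctions.

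Members were then divided into kinds. Those at introns listed in GENCODE M21 held 32.1% of member reads, and the 19 antibody joins, 0.387% of members, held 18.1%. Members that join 2 different genes were 5.82% of all and held 8.0% of reads. A gene could be named for 3612 members (73.5%).

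**Figure D2:**
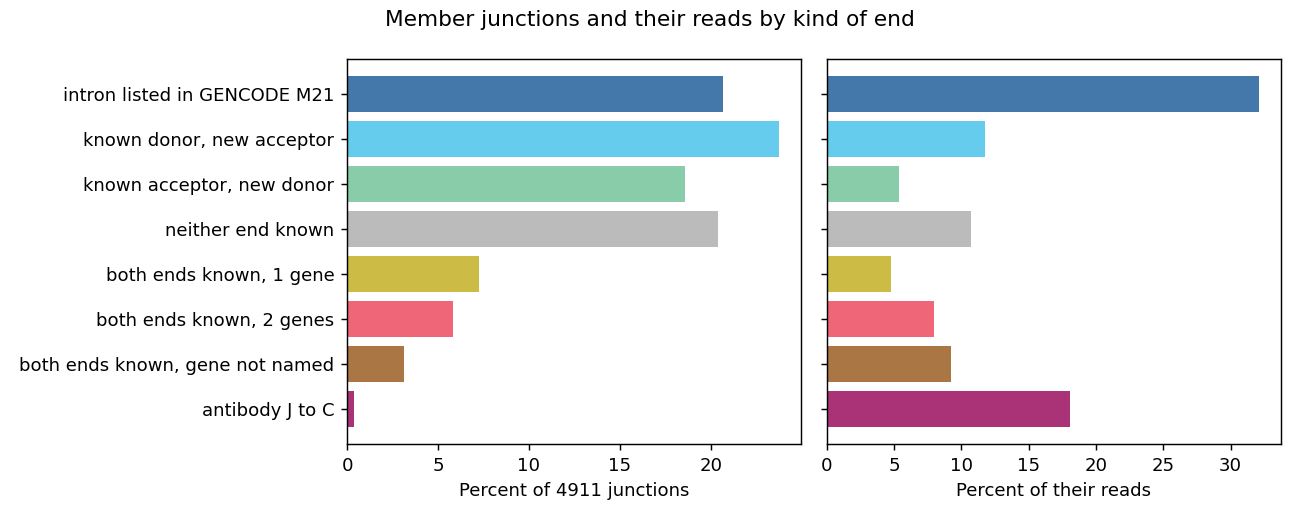
Horizontal bars give, for each kind of member, its percent of the 4911 junctions (left) and its percent of their reads (right). The antibody J to C joins are the smallest kind by number and hold 18.1% of the reads, and introns listed in GENCODE M21 hold 32.1%.

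The usage share sets a junction against its rivals: it is the junction's reads as a percent of all reads at an end it shares with other junctions. Where both ends had rivals, the end with more rival reads was used. Among the 4509 members with a rival the median share was 13.6%, against 95.2% for annotated junctions. It was 28.5% at introns listed in GENCODE M21. Outside those introns and the antibody joins, it was 50.9% for members with neither end known, 5.22% with a new acceptor and 7.01% with a new donor. Members were therefore mostly the minor choice at the end with more rival reads, while 829 took more than 50% of it. The share of each junction was compared between R1 and R2 with a two-sided Fisher's exact test, adjusted by the Benjamini-Hochberg method over 38687 junctions, and called where the adjusted p was under 0.05 and the difference was at least 10 percentage points. Of all junctions tested, 12.6% were called, and of the members 509 of 4509, or 11.3%. The share was higher in R1 for 243 members and higher in R2 for 266, where each direction held 6.3% of all junctions tested. The rule asked for reads in both R1 and R2, so nothing was read from the members' count.

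**Figure D3:**
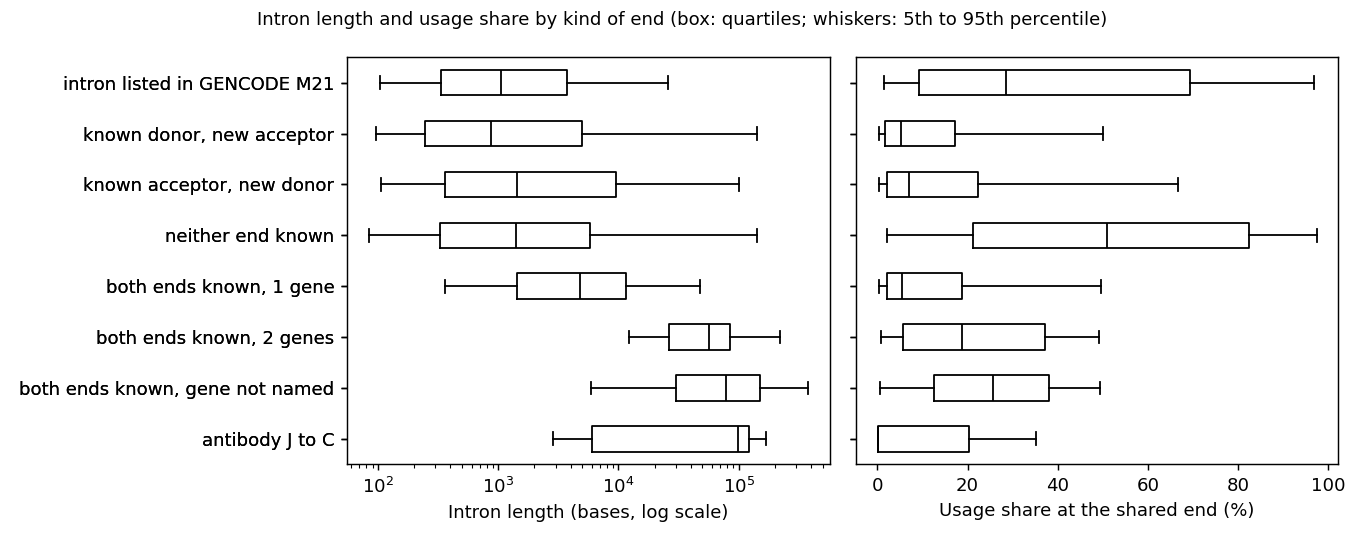
Boxes give the quartiles, the inner line the median and whiskers the 5th to 95th percentile of intron length in bases (left, log scale) and of usage share in percent (right) for each kind of member. Joins between 2 genes have a median intron of 56400 bases and a median share of 18.8%, and members with neither end known have a median share of 50.9%.

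Heavy chain joins into Igha, the constant region of IgA, led the antibody group. All 4 came together at the same acceptor on chromosome 12. Ighj2 to Igha (chr12:114498448-114667678, intron of 169231 bases) had 65742 reads in R1 and 36237 in R2, or 45.8% and 43.6% of the reads at that acceptor. Ighj3 followed with 36243 and 18991 reads, 25.3% and 22.8%. Ighj4 had 25690 and 13381 reads, 17.9% and 16.1%. Ighj1 had 15718 and 14422 reads, 11.0% and 17.4%. The order Ighj2, Ighj3, Ighj4 was the same in R1 and R2, and Ighj1 stood below Ighj4 in R1 and above it in R2. Summed over the J segments, R1 held 143393 and R2 83031 reads into Igha.

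Other heavy chain classes were far lower. Joins into Ighm, the constant region of IgM, summed to 45 reads in R1 and 123 in R2 over 4 members. Those into Ighg1 summed to 88 and 42 over 3 members, and those into Ighg2b to 67 and 80 over 4 members. Both Ighg genes encode IgG constant regions. R1 was thus the higher for Igha and R2 for Ighm, and no Ighg1 or Ighg2b sum reached 100 reads in either.

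Kappa light chain joins into Igkc, the kappa constant region, used 4 of the 5 J segments among members. Igkj5 (chr6:70673918-70676428) had 6976 reads in R1 and 6535 in R2, 34.5% and 36.0% of the acceptor. Igkj1 had 6611 and 5167 reads, 32.7% and 28.4%. Igkj2 had 4102 and 4947 reads, 20.3% and 27.2%. Igkj4 had 2513 and 1505 reads, 12.4% and 8.28%. The order was the same in R1 and R2. Igkj3, a segment known as nonfunctional in the mouse, had 0 reads in R1, 5 in R2 and flag C at 0, and was no member. None of the 19 joins was called between R1 and R2, although 14 had an adjusted p under 0.05 by the Fisher's test, since their differences stayed under 10 points. The joins into Ighm, Ighg1 and Ighg2b took at most 0.168% of the reads at their J donor. A difference of 10 points was out of reach for them, so the call says nothing about these joins. The largest difference was that of Igkj2, 6.93 points.

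**Figure D4:**
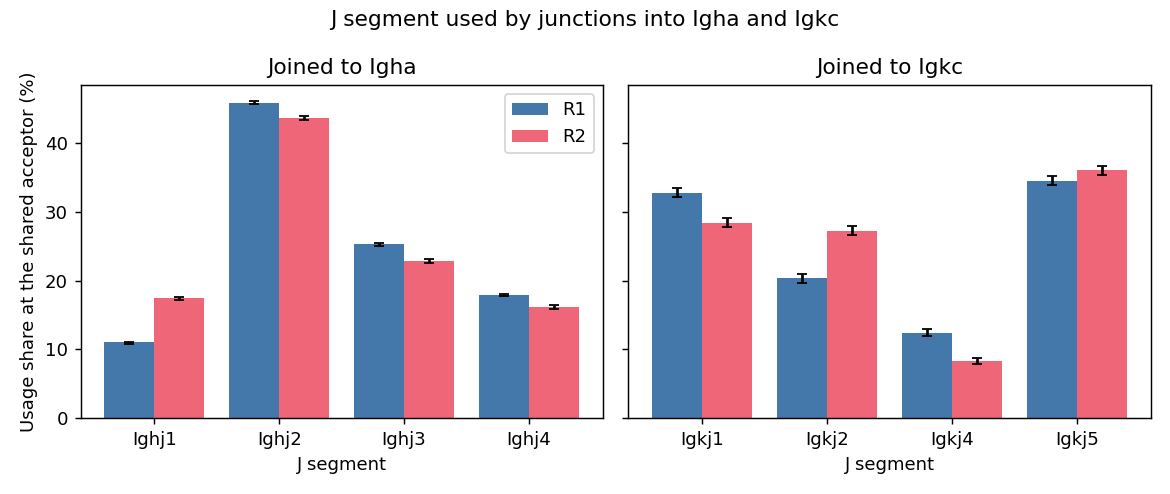
Bars give each J segment's share, in percent, of the reads at the Igha acceptor (left) and at the Igkc acceptor (right), in R1 and R2, with exact 95% binomial intervals that cover counting error only. Ighj2 is highest at Igha in both (45.8% and 43.6%), and Igkj5 at Igkc (34.5% and 36.0%).

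The introns inside Igha were members too and match GENCODE M21. The intron of 206 bases at chr12:114497374-114497579 was the member with the most reads, 137771 in R1 and 95457 in R2. The intron of 229 bases at chr12:114497916-114498144 had 29632 in R1 and 50743 in R2. R1 was higher at the former and R2 at the latter, although both introns belong to a single gene. An intron of 2432 bases at chr12:114494609-114497040 had 514 and 265 reads.

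Next came joins between 2 different genes, most of them with related names. These 286 members linked 139 pairs of genes, and 116 pairs, with 85.0% of the members, had symbols of the same stem. Near-identical copies are uncertain in a junction list, because a read can fit several of them, and the sources used here do not say how the authors placed such reads. The exon letters show how close some copies are. In the lines below the letters are the last 30 bases of the donor exon in each gene, with bases that differ in capitals.
Try4: ctggctggggcaacaccttgagctTtggTg
Try10: ctggctggggcaacaccttgagctCtggCg
Lyz1: ctAAgaatgcctgtgggatcaattgcagtg
Lyz2: ctGTgaatgcctgtgggatcaattgcagtg
Tuba1a, with the same bases in Tuba1b: tgttcgtagacctggaacccacggtcatcg
Of 270 members with the exon letters in full, the median number of identical bases out of 30 was 30 at the donor exon and 29 at the acceptor exon. At least 27 were identical at either exon in 250 (92.6%) and at both in 184 (68.1%), while 4 had fewer than 15 at both. For the 339 members that joined 2 known ends of a single gene, the medians were 9 and 8 bases, and 12.7% reached 27 at either exon. Exactly the same R1 and R2 counts as another junction at a shared end were found for 77 of the 286 (26.9%), against 1.77% of the members listed in GENCODE M21.

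Trypsin genes, whose products are digestive enzymes of the pancreas, gave the gene pairs with the most reads. Try4 to Try10 (chr6:41254579-41307328) had 8590 reads in R1 and 20 in R2. Try4 to Prss1 had 7245 and 15 reads, and Try4 to Prss2 had 6845 and 18. Their usage shares were 14.6%, 13.1% and 11.6%. All 3 were almost wholly R1 reads.

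Of the members joining 2 genes with at least 100 reads, all 10 of the trypsin genes and 13 of the 110 others differed by at least 10-fold between R1 and R2. Fcgbp, a mucus protein, joined to 9530053A07Rik had 1611 reads in R1 and 4480 in R2 (38.1% of its end). Tuba1a to Tuba1b, 2 alpha tubulins, had 2576 and 2830 (48.8%), against 2589 and 3079 for the rival junctions at the acceptor. Gsta1 to Gm3776, the former a glutathione transferase, had 2368 and 152 (34.4%) at its leading join. Clca4a to Clca4b had 417 and 2288 (47.7%), with a called difference between 65.2% in R1 and 45.5% in R2. Cyp2c65 to Cyp2c66, cytochrome P450 enzymes, had 3574 and 895 (37.1%), also called, with 40.3% in R1 and 28.1% in R2. Gstm1 to Gstm3, glutathione transferases, had 1396 and 1540 (47.1%). Lyz1 to Lyz2, the lysozymes of Paneth cells and macrophages, had 629 and 1282 (10.7%), and Hbb-bs to Hbb-bt, beta globins of red blood cells, had 916 and 1552 (25.2%). Only 2 of the 286 took more than 50% of their end, and 46 lay between 45% and 55%.

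Stretches with clustered gene copies also held unnamed members that joined known ends. At chr11:32184129-32197079, a span between Nprl3 and Sh3pxd2b that holds the alpha globin genes Hba-a1 and Hba-a2, R1 had 9649 and R2 30164 reads. At chr8:22427294-22767003, between 2610005L07Rik and Atp7b in a stretch of defensin genes, R1 had 158 and R2 6370. At chr3:92019885-92092490, between S100a6 and S100a10 in the stretch of the Sprr2 genes, R1 had 8979 and R2 1295. Of the 154 members of this kind, 42.9% had the same counts as another junction at a shared end.

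Exocrine pancreas genes formed the most uneven list. Members fell in 9 of its 33 genes, in 59 junctions with 163300 reads in R1 and 2925 in R2. Of these junctions, 39 were in Dmbt1, which is described below. Cela3b, a pancreatic elastase, gave the largest: chr4:136958543-136979161 had 74530 reads in R1 and 68 in R2, and chr4:136957561-136977814 had 18806 and 17. These introns were long, with 20619 and 20254 bases. The former took 45.9% of the reads at its donor. At the donor of the latter, rival junctions had nearly the same counts, 18822 in R1 and 17 in R2. Whether near-identical copies shared the reads of these Cela3b junctions was not tested. At gene level the deposited TPM of Cela3b was 5184 in replicate 1 and 6.80 in replicate 2, which were not matched to R1 and R2. Without the genes of this list, members held 675031 reads in R1 and 627465 in R2, and 42 in place of 63 were at least 10-fold higher in R1. In bulk tissue, more cells of a type and more RNA per cell cannot be told apart.

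Dmbt1, a scavenger receptor glycoprotein of mucosal surfaces that stood on the same list, had 39 members, 33 of them joining known ends of the gene in new combinations. They held 18777 reads in R1 and 2014 in R2. The leading pair, chr7:138234042-138245451 with 4271 and 294 reads and chr7:138238421-138245451 with 4249 and 293, shared an acceptor and the same 15 donor bases. Dmbt1 exons repeat, so reads of its joins are uncertain in the way of gene copies.

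Among brush border genes for digestion and absorption, 21 of 43 had members, 149 junctions in all. Mgam, the maltase-glucoamylase that releases glucose from starch products, had more members than any other gene, 53, with 21148 reads in R1 and 17449 in R2. Of these, 21 matched an intron in GENCODE M21 and 32 shared a single end with a known junction. The median intron of the 53 was 27655 bases, so the short introns named next do not stand for the set. Whether near-identical copies shared their reads was not tested. Its leading intron, chr6:40697150-40697854 of 705 bases, had 2257 and 1594 reads and 77.9% of its end. Introns of 803 bases (1875 and 1634 reads) and of 567 bases (2183 and 796 reads) followed. Its neighbour Mgam2-ps had 16 members, all 16 listed in GENCODE M21, and the megabase around these genes held 116 members. Ces2c, a carboxylesterase, had 40 members with 11211 and 7335 reads, of which 19 joined it to another gene. The leading Ces2c member, chr8:107376626-107396585 of 19960 bases, had 3266 and 1759 reads and 48.3% of its end. A Ces2a donor was joined to Ces2c acceptors at 107375912 and 107395511 with the same counts, 80 in R1 and 194 in R2. Reads of Ces2c joins are thus uncertain in the way of gene copies. Of the 143 members of this list with a rival, 74 took less than 10% of their end and 15 more than 50%. Vil1, the villin of microvilli, had a leading share of 1.53% (57 and 109 reads), and Apoc3, an apolipoprotein, 0.289% (29 and 87 reads).

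The other lists were smaller. Mucus and antimicrobial genes had members in 9 of 22 (29 junctions, 8668 reads in R1 and 14496 in R2), led by Fcgbp at chr7:28890228-28941545 with 3499 and 5292 reads. This Fcgbp intron of 51318 bases took 45.2% of its end and overlaps the leading join of Fcgbp to 9530053A07Rik. Whether near-identical copies shared its reads was not tested. Zg16, a mucus lectin that was also counted on the exocrine pancreas list, had 1072 and 571 reads at an intron of 652 bases that took 98.7% of its end. Antibody and antigen presentation genes had members in 12 of 18 (57 junctions), of which 15 were joins into Igha, Igkc, Ighm or Ighg1. Smooth muscle genes had members in 7 of 19, and 12 of those 18 junctions are in GENCODE M21. Myl6, a myosin light chain, led with 244 and 145 reads. Splicing factor genes had members in 9 of 46, led by Mbnl1 with 113 and 19 reads, Srsf7 with 48 and 69, Mbnl2 with 78 and 10 and Snrnp70 with 59 and 22. No gene of the stomach and Brunner gland list, of 14, had a member.

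Highly expressed genes held members more often. Of 11309 genes with a TPM, a level per transcript length, of at least 1 in both replicates, members fell in 312 of the 5081 under a mean of 10, 1024 of the 4872 from 10 to 100, 494 of the 1217 from 100 to 1000 and 59 of the 139 above. The rule's read minimum moves with the level of a gene, and its part in this was not tested. Of the 2011 genes named, 1231 had a single member and 28 had at least 10. After Mgam, Ces2c and Dmbt1 came Btnl5-ps and Cyp4f16 with 17 members each, of which 12 and 13 were joins to another gene.

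New acceptors often lay a few bases from the known one. Of the 1467 members with a known donor and another acceptor, 363 (24.7%) ended within 12 bases of the nearest known acceptor, against 121 of 1208 new donors. A shift of exactly 3 bases was found at 195 new acceptors, 148 of them into the exon, and at 5 new donors. A shift of 4 bases was found at 67 acceptors and 30 donors. Within 100 bases, 50.3% of acceptor shifts (421 of 837) and 33.4% of donor shifts (119 of 356) were multiples of 3. Of those 421 acceptor shifts, 195 were the shifts of exactly 3 bases. A multiple of 3 keeps the reading frame only where the end lies in coding sequence, and coding ends were not set apart here.

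The exon letters show the choice. In the lines below the capitals are the bases that the new acceptor leaves out of the exon.
Cfd: CAGcacagccccgaggccggattctgggtg
Sgta: CAGgagatgccacaggacccgcgggcccct
Sct: CGAGCAGgacacagaaaatatcccagagaa
Atxn2l: CTCTCCCTTTTCTTCCAGtgggccggatgt
Each run of capitals ends in AG. Among 135 shifts of 3 bases into an exon whose letters could be read, the bases left out were CAG in 91, AAG in 25, TAG in 13 and GAG in 6.

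The new end was mostly the lesser of the pair. Of 148 acceptors 3 bases into the exon, 21 took more than 50% of the reads of the pair and 48 less than 10%. Cfd, complement factor D, had 77 reads in R1 and 3589 in R2 at the new acceptor and 24 and 1985 at the known one. The new end took 64.6% of the reads of the pair, and GENCODE M21 lists this Cfd intron. Fau, a ribosomal protein fused to a ubiquitin-like domain, had 998 and 1780 against 552 and 1098 (62.7%). Sgta, a chaperone partner, had 268 and 357 against 123 and 146 (69.9%). In these 3 the new end, 3 bases into the exon, was higher in R1 and in R2. Elsewhere the known end led: Midn had 679 and 1059 reads against 1209 and 2319 (33.0%), and Aes, a corepressor, 1190 and 1276 against 13840 and 20984 (6.61%).

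Of 231 acceptors 4 to 30 bases into the exon, 15 took more than 50% and the median was 3.92%. Atxn2l, an RNA-binding relative of ataxin-2, had 1496 and 519 reads at an acceptor 18 bases into the exon, against 129 and 165 (87.3%). Mlf2 had 692 and 1205 at one 21 bases in, against 37 and 24 (96.9%), and GENCODE M21 lists this Mlf2 intron. Hnf4a, a nuclear receptor that governs intestinal genes, had 1675 and 1144 reads at a donor 30 bases into the exon, against 1136 and 662 (61.1%). Sct, the secretin hormone of duodenal endocrine cells, had 150 and 739 reads at an acceptor 7 bases in, against 1080 and 5814, so the known end kept the larger part and the new one 11.4%.

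**Figure D5:**
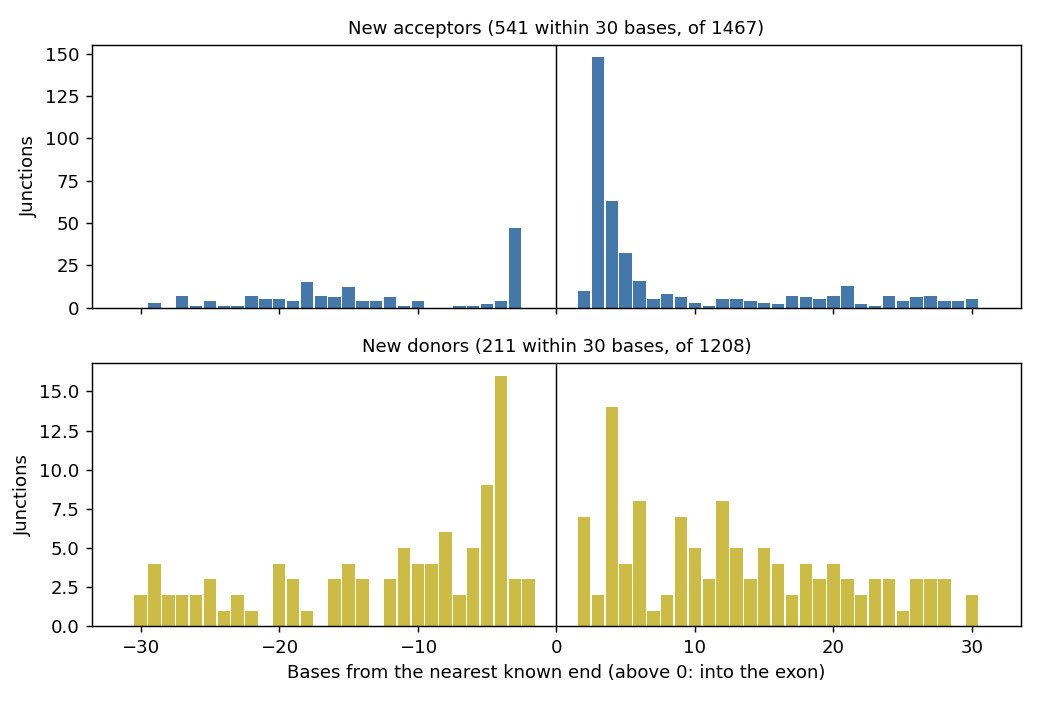
Bars count members by the distance in bases, up to 30, from a new acceptor (top) or new donor (bottom) to the nearest known one, with positive distances into the exon. Acceptors peak at 3 bases into the exon (148 members), and donors lie at 4 bases on either side more often than at 3.

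Exon skipping could be read from lengths for 415 members, whose intron equals that of a GENCODE M21 transcript with exons left out. A single exon was skipped by 336, 2 exons by 31 and more by 48, and the bases left out had a median of 129. Of 148 skips of a single coding exon, 41.9% left out a multiple of 3, against 41.0% of all internal coding exons of GENCODE M21. The shares differed by less than 1 percentage point.

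App, the amyloid precursor protein, gave a skip of a 57-base coding exon that took 51.4% of its end (chr16:85030611-85043820). It had 157 reads in R1 and 242 in R2, and the join reads as follows, with the exon after the skip in capitals.
App: tgtgtggcagcgtgtTTCCCACGACAGCAG
Slc13a2, the sodium-coupled carrier of dicarboxylates, had a skip of a 122-base coding exon with 18 reads in R1 and 390 in R2 (20.3%). Cda, cytidine deaminase, had a skip of 112 bases with 412 and 858 reads (8.48%), and Epn1, an endocytic adaptor, one of 104 bases with 253 and 674 reads (13.0%). Serpinh1, a collagen chaperone, left out 44 bases in 96.0% of the reads of its end, with 1483 and 1127 reads, and this join is listed in GENCODE M21. Ifi27l2b, an interferon-induced gene, had 2839 and 8217 reads at a join over 3 exons (40.8%).

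High shares were reached by members in several genes. Among members with at least 30 rival reads, the Igha introns of 206 and 229 bases stood first, with 86 and 90 rival reads in all. An unnamed intron of 396 bases at chr5:137633313-137633708, between Muc3 and Ache, had 833 and 2173 reads (97.5%). Mlf2 followed, and Smim22 had 333 and 1281 reads (96.8%) at an intron of 83 bases. Apol9a had 34 and 1154 reads (93.8%). Unnamed introns at chr6:40675515-40676587 beside Mgam (684 and 1372 reads, 96.7%), at chr6:69599127-69599299 in the kappa stretch (1020 and 996 reads, 96.6%) and at chr12:115117611-115117694 beyond the Ighj segments (1160 and 80 reads, 93.7%) completed this group together with Serpinh1.

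The largest differences in share between R1 and R2 came partly from few reads. Zfp740 had 9 reads in each, but its rivals had 44 in R1 and 0 in R2, so the junction took 17.0% of its end in R1 and the whole of it in R2 (adjusted p = 5.57e-05, Fisher's exact test). Mlst8 had 6 and 8 reads and shares of 17.1% and 88.9% (adjusted p = 0.00154, Fisher's exact test). An intron at chr12:114849699-114924080, beyond the Ighj segments, had 1092 reads in R1 and 9 in R2 and shares of 72.9% and 1.84% (adjusted p = 7.71e-192, Fisher's exact test). One at chr6:68860699-68860883, in the stretch between Serbp1 and Rpia that holds the kappa genes, had 131 and 17 reads and shares of 92.9% and 18.7%, and another there, chr6:69450557-69526445, had 5 and 17 reads and shares of 2.00% and 77.3%. An unnamed intron at chr1:187273094-187273386 had 10 reads in each, with 35 rival reads in R1 and 0 in R2.

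At the extremes of length, the shortest intron had 32 bases (chr11:60371177-60371208, 26 reads in R1 and 29 in R2), followed by 40 bases (5 and 7 reads) and 42 bases (7 and 7 reads), and 22 members were under 70 bases. The longest had 740943 bases (chr12:116306083-117047025, 7 and 15 reads), followed by 657243 bases (22 and 30 reads) and 642837 bases in Gm13306 (5 and 18 reads). None of these 6 reached 100 reads.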

How the data were processed

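Per the file headers and labels, reads of 2 libraries were processed by the authors, and the junction and contig lists use mm9. The deposited counts of a junction are reads across it, not normalised, and equal R1 plus R2. The deposited score was taken unchanged. Of the contigs, whose deposited signal entered no result, only positions were used. Deposited TPM values, which the authors' quantification divides by transcript length and library total per the file headers, served as gene levels. The aligner, and its handling of reads that fit several places, was not given in the sources used here.

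Gene names came from intron, exon and intron lengths found in a single GENCODE M21 gene on the same chromosome and strand. Neighbouring named genes kept their order in 99.4% of 12284 pairs. Antibody joins were named by intron length, and mm9 positions were never set beside mm10 positions. Usage shares were compared for junctions with at least 10 reads and a rival, with Python 3.11.15, scipy and pandas, after a test on simulated data. Intervals are exact (Clopper-Pearson, 95%) and cover counting error only.

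Members and lists were chosen with earlier results of these data known. Named junctions are the 12 with the most reads, the 10 highest shares and 6 largest called differences among those with at least 30 rival reads, the 3 shortest and 3 longest introns, up to 4 per gene list, and genes with most members. Gene pairs, shifted ends, skips, other antibody joins, stretches of unnamed members and further list genes were chosen after their values were seen. Transcript tables were not used.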

Additional observations from a re-analysis of the deposited data

How the results depend on the processing

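With other read minimums, members numbered 7033 (at least 3 in R1 and R2) or 2847 (at least 10), and 3905 had a score of at most 0.1. With the minimum asked of only R1 or only R2 they numbered 10679 to 11722. The share with a known end was 67.9% when known ends came only from annotated junctions with at least 5 reads in R1 and R2, and 70.6% at the minimum of 10, and the share joining 2 known ends was 14.5% and 20.4%. The median intron was 1580 bases at the minimum of 3 and 2220 at 10. The median usage share was 13.7% from R1 alone and 13.9% from R2 alone, and 10.3% against annotated rivals only. Called members numbered 299 with a difference of at least 20 points, and 411 to 459 under the other settings. Naming by 1 intron length tied 1279 members to a gene at a known end, in place of 3262. New ends within 12 bases (18.1%) and contigs at both ends (87.6%) moved to 17.7% and 88.2%. No paired analysis was possible because the series has a single group. The labels do not tie R1 and R2 to the replicates, and they were not assigned from expression values. Near-identical copies could not be told apart, and no mm9 genome was used here, so letters inside introns were not read.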
